A study of Homo sapiens with 4 samples.

Results

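The growth factor receptor tyrosine kinases known from glioma, 10 genes of 18304 on the array, were followed in U87 cells, an established human glioma line: EGFR, ERBB2, ERBB3, PDGFRA, PDGFRB, MET, FGFR1, FGFR2, AXL and IGF1R. Their 50 probe sets were taken from 41920, as those whose platform annotation names 1 of these 10 genes and no other. Cells of the first group carried a knockdown of QK (the RNA-binding protein gene QKI) and were transduced with miR-20a (2 arrays). Those of the second carried the same QK knockdown and were transduced with miR-NT, a scrambled microRNA without intended targets (2 arrays). No cells with intact QK were analysed here, so each value below describes miR-20a on top of the knockdown. Whether the arrays within a group stand for separate cultures is not stated in the labels, and the p-values reflect the array-to-array spread alone, which may be technical.

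Receptor tyrosine kinases sit in the cell membrane, bind a growth factor outside the cell, pair up and phosphorylate each other's tails inside it. Adaptor proteins dock on these tails and pass the signal to the RAS-ERK and PI3K-AKT routes, which drive growth and survival. Gain of EGFR, PDGFRA or MET is a recurrent event in glioblastoma. A microRNA lowers its targets by pairing its seed, bases 2 to 8, with sites mostly in the untranslated end of the messenger RNA.

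The microRNAs are shown because the seed is what decides which messengers a microRNA can pair with. All are mature human sequences from RefSeq (GRCh38.p14), 5′ to 3′, with the seed in capitals. The labels name miR-20a without its arm, and the 5p arm, which carries the seed of the miR-17 family, is printed. It lies at chr13:91351072-91351094 on the plus strand. The other 5 of the same family carry the same seed, so that a seed site for one can pair with any of the 6.
hsa-miR-20a-5p: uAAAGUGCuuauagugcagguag
hsa-miR-17-5p: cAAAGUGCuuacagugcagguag
hsa-miR-20b-5p: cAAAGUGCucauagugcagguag
hsa-miR-93-5p: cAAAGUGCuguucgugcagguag
hsa-miR-106a-5p: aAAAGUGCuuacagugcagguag
hsa-miR-106b-5p: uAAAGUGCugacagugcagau
In all, 8 mature sequences of the RefSeq table share these 7 letters, AAAGUGC; the other two are hsa-miR-519d-3p and hsa-miR-526b-3p. Sites for the seed in the receptor messengers were not analysed here.

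No receptor probe set passed the test between miR-20a and miR-NT cells. Levels are log2 values of probe sets as deposited, and a change below is the miR-20a mean minus the miR-NT mean in log2 units. With limma and a Benjamini-Hochberg adjustment over all probe sets, 0 of the 50 receptor probe sets had an adjusted p under 0.05, beside 0.136% of all probe sets (57, of which 50, or 0.119%, were higher and 7, or 0.0167%, lower in miR-20a cells). The smallest adjusted p among the receptors was 0.141 (limma). At an unadjusted p under 0.05 there were 6 receptor probe sets, 2 higher and 4 lower (12.0%), against 17.9% of all probe sets (9.46% higher and 8.40% lower). The miR-20a and miR-NT arrays did not overlap for 23 of the 50, with 6 above and 17 below (46.0%), against 48.9% of all probe sets (21.7% above and 27.2% below). With both directions together, both shares lie near or under the background of this array. By direction, the share without overlap was 12.0% above, under the background, and 34.0% below, over it. A p that misses the threshold does not show that a level was the same. The 95% intervals from limma are per probe set, unadjusted for their number, and rest on the array-to-array spread, which may be technical. At low signal, which cannot be told from background, a narrow interval says little about the transcript. All 50 intervals lay inside a 2-fold change either way, and 46 lay inside a 1.5-fold change. The intervals reached from -0.80 at the lowest bound to 0.68 at the highest, with a median half-width of 0.24 log2 units.

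**Figure D1:**
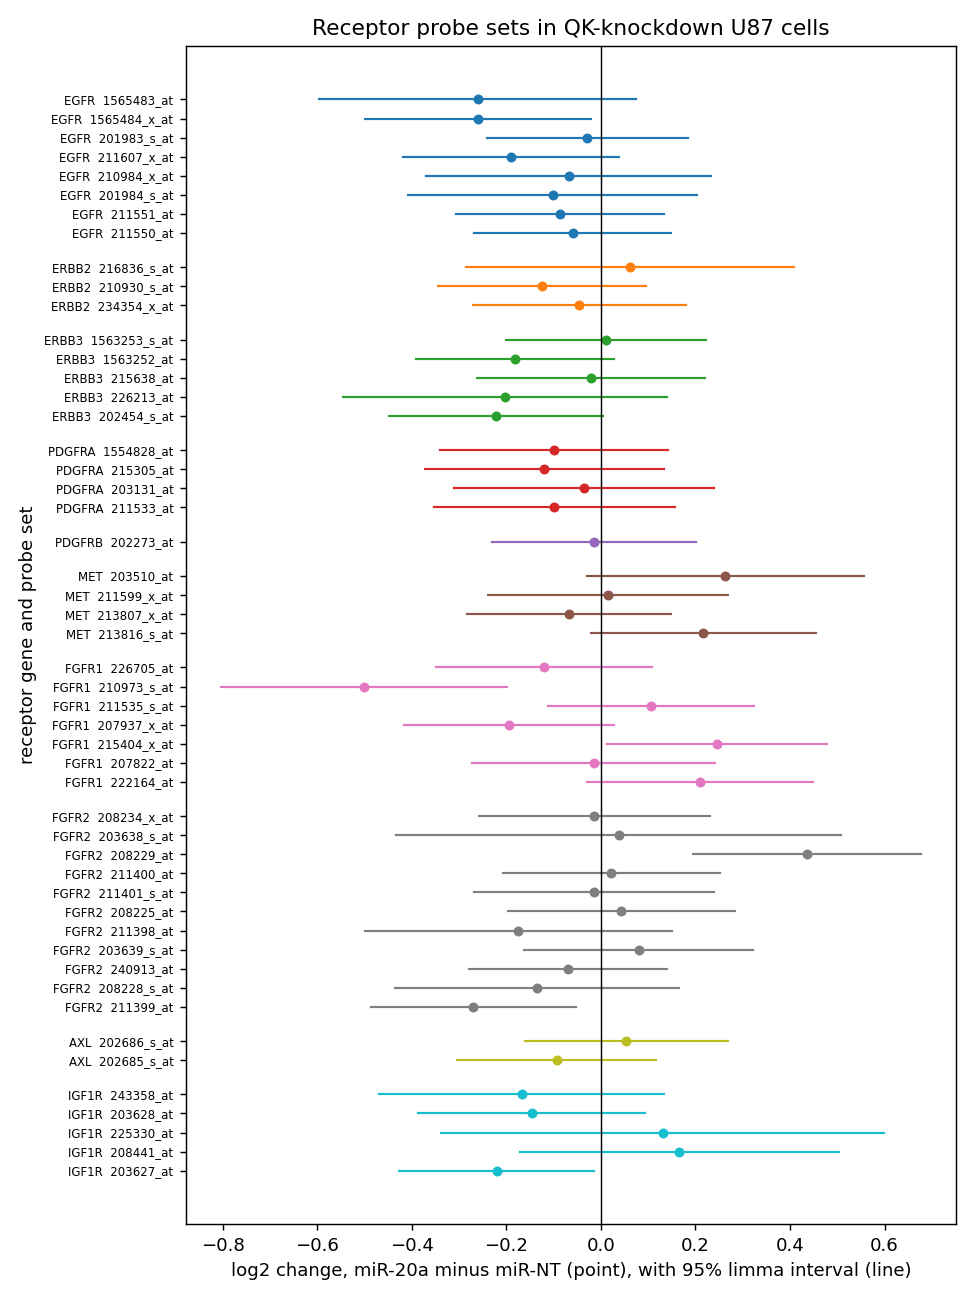
Log2 change of each of the 50 receptor probe sets (x axis, miR-20a minus miR-NT), grouped by gene down the page. Points are the change and lines the 95% limma interval, 2 arrays a group; most lines cross 0, and FGFR1 and FGFR2 each have probe sets on both sides of it.

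Taken by gene, the receptors differed in how well their probe sets went together. A probe set is a group of short probes read as 1 value, and several can represent 1 gene at different places or splice forms. Those whose name ends in x_at hold probes that can also match other transcripts. All probe sets of a gene read the same 4 RNA samples, so they are not replicates. The probe set of the highest mean is named for each gene only to show which one stands for it, since levels of different probe sets do not measure amounts on a common footing. The arrays carry no detection calls, so a low level cannot be told from background, and in bulk RNA fewer cells and less RNA per cell cannot be told apart.

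EGFR, the receptor for EGF and its relatives and the most often amplified receptor gene in glioblastoma, had a lower mean in miR-20a cells by all 8 of its probe sets. None passed the test, and the changes lay between -0.26 and -0.03, with a median of -0.09. The probe set of the highest mean, 1565483_at, read 8.90 and 8.99 log2 units on the miR-20a arrays, against 9.40 and 9.01 on the miR-NT arrays. The groups stood apart there by only the gap between 8.99 and 9.01, and the miR-NT arrays were the more spread. Its change was -0.26 ± 0.14 (SE, limma adjusted p = 0.381), and it was -0.06 without miR-NT replicate 1 and -0.46 without miR-NT replicate 2. Probe set 1565484_x_at read 8.31 and 8.48 in miR-20a cells, against 8.69 and 8.62 in miR-NT cells, a change of -0.26 ± 0.10 (SE, limma adjusted p = 0.251). For 211607_x_at the values were 8.37 and 8.31 on the miR-20a arrays, against 8.60 and 8.46 on the miR-NT arrays (change -0.19 ± 0.10, SE). These 3, 211551_at and 211550_at had both miR-20a arrays below both miR-NT arrays, which 27.2% of all probe sets had. The others overlapped, among them 201983_s_at, at 8.45 and 8.40 in miR-20a cells and 8.43 and 8.49 in miR-NT cells. Its interval ran from -0.24 to 0.18, which leaves room for a level between 0.847 and 1.14 times that of miR-NT cells. The shared sign held for all 8 after quantile normalization, for 7 after median centring and for 6 without miR-20a replicate 1. Lower means were also the more common ones on the whole array, at 55.2% of all probe sets and 68.0% of the receptor probe sets.

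ERBB2, the partner of the family that binds no known ligand of its own, was represented by 3 probe sets with changes between -0.12 and 0.06. That of the highest mean, 216836_s_at, read 6.78 and 7.20 in miR-20a cells, against 6.96 and 6.90 in miR-NT cells. The 2 miR-20a arrays lay on either side of the miR-NT pair, so their own spread exceeded the difference between the groups (0.06 ± 0.14, SE, limma adjusted p = 0.872). ERBB3, the neuregulin receptor with little kinase activity of its own, had 4 of 5 probe sets with a lower mean in miR-20a cells. Its probe set of the highest mean, 1563253_s_at, was at 7.995 and 8.06 in miR-20a cells and 8.04 and 7.99 in miR-NT cells, a change of 0.01. The smallest p belonged to 202454_s_at, at 5.53 and 5.66 in miR-20a cells against 5.84 and 5.79 in miR-NT cells (change -0.22 ± 0.09, SE, limma adjusted p = 0.288). For ERBB3, this probe set and 1563252_at had both miR-20a arrays below both miR-NT arrays, which 27.2% of all probe sets had. The count of 4 lower became 3 after quantile normalization and after median centring.

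The platelet-derived growth factor receptors showed small differences. PDGFRA, the receptor that marks oligodendrocyte precursors and the proneural class of glioblastoma, was read at levels between 4.67 and 5.80 log2 units by 4 probe sets on all arrays. Each had a lower mean in miR-20a cells, by -0.12 to -0.04, and for each the groups overlapped. Probe set 203131_at, for example, read 5.56 and 5.36 in miR-20a cells and 5.59 and 5.40 in miR-NT cells, so that arrays of a group differed more than the groups did. After quantile normalization 3 of the 4 kept the sign. PDGFRB, the receptor of pericytes and other mesenchymal cells, had 1 probe set, 202273_at. It read 8.61 and 8.55 in miR-20a cells, against 8.63 and 8.56 in miR-NT cells, a change of -0.01 ± 0.09 (SE, limma adjusted p = 0.960). The interval of -0.23 to 0.20 was among the narrower ones, and the 4 arrays spanned less than 0.1 log2 units.

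MET, the receptor of hepatocyte growth factor and a driver of glioma cell motility, was the only 1 of the 10 genes whose probe set of the highest mean had both miR-20a arrays above both miR-NT arrays. Probe set 203510_at read 10.23 and 9.95 in miR-20a cells, against 9.90 and 9.75 in miR-NT cells, a change of 0.26 ± 0.12 (SE, limma adjusted p = 0.321). Of all probe sets, 21.7% had both miR-20a arrays above. The rest of the gene went both ways. Probe set 213816_s_at also stood above, at 8.03 and 8.15 in miR-20a cells against 7.80 and 7.94 in miR-NT cells (change 0.22 ± 0.10, SE). By contrast 211599_x_at overlapped, and 213807_x_at lay below, at 9.48 and 9.45 in miR-20a cells against 9.58 and 9.48 in miR-NT cells (change -0.07). The change of 203510_at depended on single arrays and on the scaling: it was 0.12 without miR-20a replicate 1, 0.40 when replicate 2 was left out instead, and 0.14 after quantile normalization.

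AXL, the receptor of GAS6 that is known from mesenchymal and invasive glioma cells, had 2 probe sets of opposite sign. Probe set 202686_s_at was at 11.51 and 11.47 in miR-20a cells and 11.48 and 11.40 in miR-NT cells (change 0.05 ± 0.09, SE, limma adjusted p = 0.805). This sign turned to -0.09 after quantile normalization. Probe set 202685_s_at read 9.07 and 9.09 in miR-20a cells, against 9.21 and 9.14 in miR-NT cells (change -0.09 ± 0.09, SE). Replicates lay close together for both, within 0.1 log2 units, and both intervals lay between -0.30 and 0.27.

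FGFR1, a receptor of the fibroblast growth factors that is made in many splice forms, had the widest range of changes among the 10 genes. Its 7 probe sets ran from -0.50 to 0.25, with a median of -0.02. The largest difference was that of 210973_s_at, at 9.51 and 9.65 in miR-20a cells against 10.23 and 9.93 in miR-NT cells. Both miR-20a arrays lay below both miR-NT arrays, by a change of -0.50 ± 0.13 (SE, unadjusted p = 0.00610, limma adjusted p = 0.154), with an interval of -0.80 to -0.20. It was between -0.65 and -0.35 when each array was left out in turn. Of the same sign, with groups apart, were 207937_x_at (change -0.19) and 226705_at (change -0.12, and -0.05 without miR-NT replicate 1). Probe sets standing the opposite way numbered 3. Probe set 215404_x_at read 7.63 and 7.49 in miR-20a cells, against 7.35 and 7.27 in miR-NT cells (change 0.25 ± 0.10, SE, limma adjusted p = 0.262). Probe set 222164_at read 6.84 and 6.76 in miR-20a cells, against 6.51 and 6.67 in miR-NT cells (change 0.21), and 211535_s_at had a change of 0.11. For 6 of the 7 the groups did not overlap, 3 above and 3 below, against 48.9% of all probe sets. Of the 123 genes with 7 probe sets, 116 had a smaller range of changes than the 0.75 of FGFR1, and their median range was 0.41. The splice form each probe set reads was not analysed here, and the part of RNA quality in these differences was not tested.

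FGFR2, the relative of FGFR1 known for a splice switch between epithelial and mesenchymal cells, had 11 probe sets, 5 with a higher and 6 with a lower mean in miR-20a cells. The smallest p of all receptors was that of 208229_at, at 7.03 and 7.16 in miR-20a cells against 6.59 and 6.73 in miR-NT cells. Its change was 0.44 ± 0.10 (SE, unadjusted p = 0.00393, limma adjusted p = 0.141), and it stayed between 0.37 and 0.50 when each array was left out. It stood alone in the gene. Probe set 211399_at lay the other way, at 4.95 and 4.86 in miR-20a cells against 5.20 and 5.15 in miR-NT cells (change -0.27 ± 0.09, SE, limma adjusted p = 0.211). The probe set of the highest mean, 208234_x_at, had a change of -0.01, and 8 of the 11 overlapped between the groups. Of all probe sets, 48.9% did not overlap. Probe set 203638_s_at shows the spread that can occur within a group, at 6.84 and 7.12 in miR-20a cells and 7.23 and 6.65 in miR-NT cells. The range of changes, 0.71, was wider than that of 5 of the 7 genes with 11 probe sets, FGFR2 itself being among the 7.

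**Figure D2:**
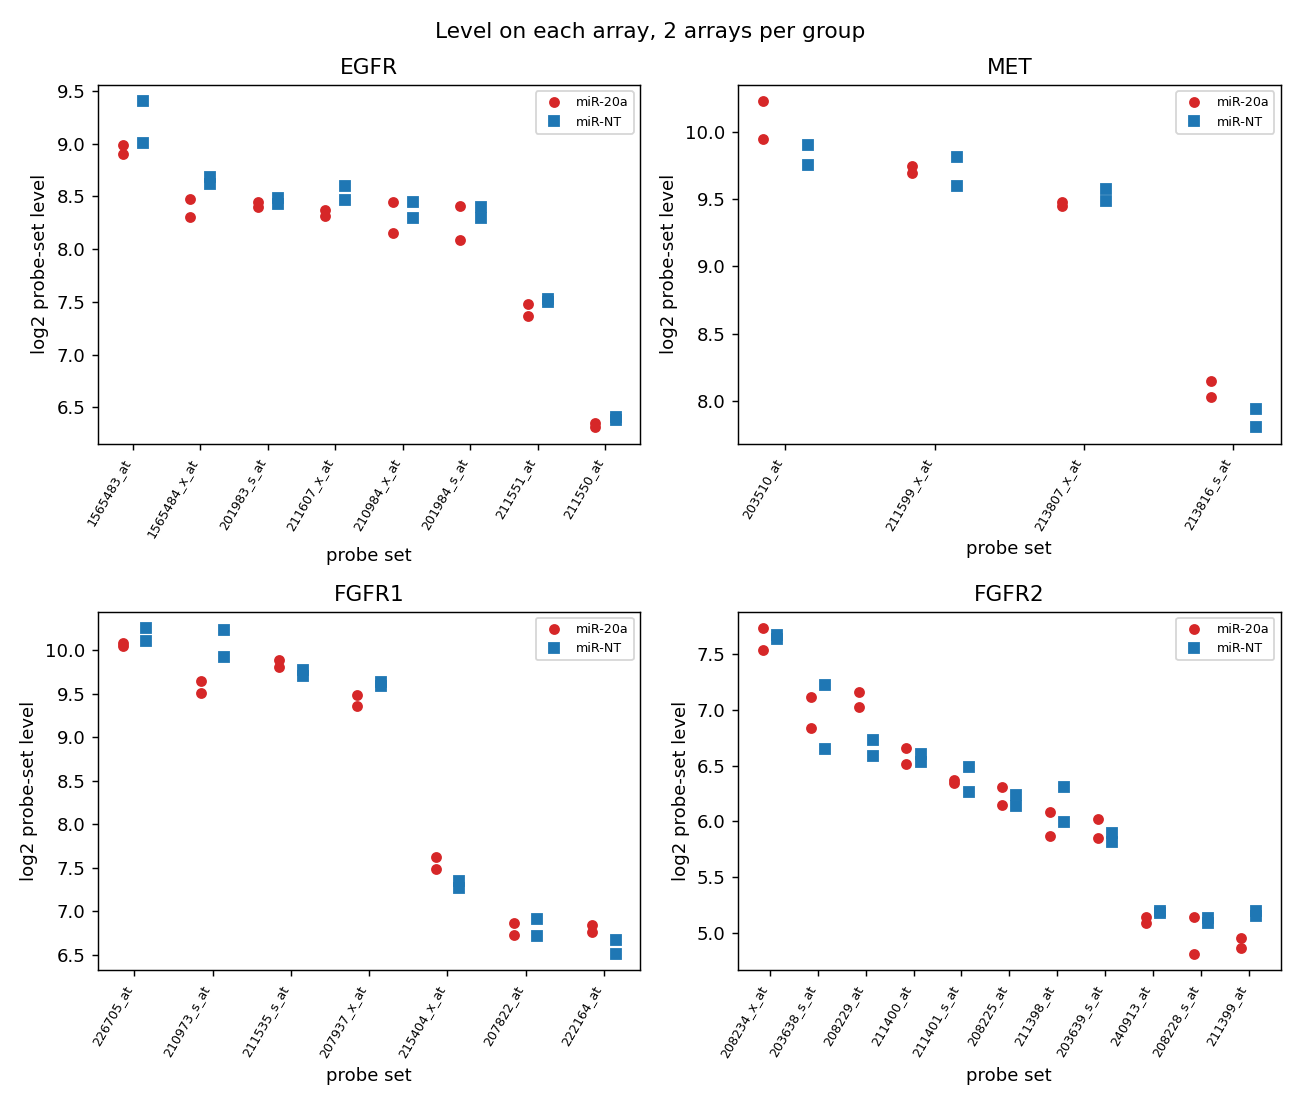
Log2 level (y axis) of every probe set of EGFR, MET, FGFR1 and FGFR2 (x axis) on each array, with 2 miR-20a arrays as circles left of 2 miR-NT arrays as squares. The miR-20a circles of FGFR1 210973_s_at sit below its squares at 9.51 and 9.65 against 10.23 and 9.93, while those of FGFR1 215404_x_at and FGFR2 208229_at sit above theirs.

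IGF1R, the insulin-like growth factor receptor that signals through IRS proteins, had 3 probe sets with a lower and 2 with a higher mean in miR-20a cells. The tightest replicates were those of 203627_at, at 6.00 and 5.98 in miR-20a cells against 6.22 and 6.21 in miR-NT cells. The groups did not overlap for this probe set, with a change of -0.22 ± 0.09 (SE, limma adjusted p = 0.257). Of all probe sets, 27.2% lay below without overlap. Probe set 203628_at also lay below, at 6.86 and 6.69 in miR-20a cells against 6.88 and 6.96 in miR-NT cells, a change of -0.15. The other three overlapped, among them that of the highest mean, 243358_at, whose change of -0.17 was -0.02 without miR-20a replicate 1. Probe set 225330_at, for instance, read 6.87 and 6.40 in miR-20a cells and 6.29 and 6.72 in miR-NT cells, so its arrays differed within each group by over 0.4 log2 units.

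Genes around the receptors were followed in 5 lists, and none of their 273 probe sets passed the test either (limma). At an unadjusted p under 0.05, the lists held 15 of 62 ligand probe sets, 7 of 76 of other receptor tyrosine kinases, 6 of 50 of adaptors and relays, 11 of 48 of inhibitors and turnover factors, and 13 of 37 of ERK feedback and output genes. The share of all probe sets was 17.9%.

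Of the ligands, 23 of 26 genes were measured, and their probe sets had a median change of -0.06, against -0.02 for all probe sets and -0.06 for the receptors. HBEGF, an EGFR ligand, read 8.85 and 8.89 log2 units in miR-20a cells, against 9.20 and 9.18 in miR-NT cells (change -0.32 ± 0.09, SE, limma adjusted p = 0.165). Its 4 probe sets went 3 lower and 1 higher. FGF2, the basic fibroblast growth factor that binds FGFR1, was at 8.51 and 8.45 in miR-20a cells and 8.22 and 8.03 in miR-NT cells (change 0.35 ± 0.10, SE, limma adjusted p = 0.181), and both its probe sets were higher. PDGFC, a ligand of PDGFRA, differed by 0.29 ± 0.09 by the probe set used, and its other probe set had the opposite sign. The following 4 were chosen after their values were seen. HGF, the ligand of MET, read 7.61 and 7.54 in miR-20a cells and 7.57 and 7.64 in miR-NT cells, which overlapped. GAS6, the ligand of AXL, had a change of -0.24 ± 0.09, with both probe sets lower. PDGFA stood at 0.36 ± 0.13, though its other probe set had the opposite sign. FGF18 had the smallest p among the ligands by 206986_at, at 6.26 and 6.10 in miR-20a cells against 6.73 and 6.91 in miR-NT cells (change -0.64 ± 0.11, SE, limma adjusted p = 0.116). Its probe set of the highest mean, 211485_s_at, had a change of 0.0024 (limma adjusted p = 0.998), and the others lay between -0.21 and -0.05.

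Among 27 measured receptor tyrosine kinases outside the 10, 57 of 76 probe sets (75.0%) had a lower mean in miR-20a cells. Their median change was -0.06, and 55.2% of all probe sets had a lower mean. ALK, a receptor of the nervous system, showed a difference of -0.36 ± 0.11 (SE, limma adjusted p = 0.201). That of ROR2, a Wnt5a receptor, was -0.27 ± 0.09. That of FLT3, a receptor of blood progenitors, was -0.25 ± 0.11, and -0.16 without miR-20a replicate 2. ROR2 and FLT3 had 1 probe set each. ROR2 read 4.91 and 4.85 in miR-20a cells, against 5.19 and 5.10 in miR-NT cells. FLT3 read 6.24 and 6.05 in miR-20a cells, against 6.33 and 6.47 in miR-NT cells. Whether these levels lie above background is not known. The adaptors and relays had a median of 0.03. PTPN11, the phosphatase SHP2 that carries receptor signals to RAS, read 11.09 and 11.03 in miR-20a cells, against 10.65 and 10.63 in miR-NT cells. The groups stood apart by a change of 0.42 ± 0.09 (SE, limma adjusted p = 0.138). PTPN11 passed when eBayes used a trend and a robust fit (limma adjusted p = 0.0291), but only 3 of its 6 probe sets were higher, and the mean over them changed by 0.04. PIK3R1, the regulatory subunit of PI3-kinase, had a change of 0.31 ± 0.09 and IRS1, the docking protein of IGF1R and the insulin receptor, of 0.27 ± 0.10, each with all 3 probe sets higher. The change of IRS1 was 0.18 without miR-20a replicate 1. With the mean over probe sets, PIK3R1 changed by 0.21 and IRS1 by 0.17.

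The inhibitors and turnover factors had 27 of 48 probe sets with a higher mean in miR-20a cells and a median change of 0.05. Of these factors' probe sets 43.8% had a lower mean, against 55.2% of all probe sets. Their groups were apart for 18 above and 6 below (37.5% and 12.5%, against 21.7% and 27.2% of all probe sets). CBLB, a ubiquitin ligase that sends active receptors to breakdown, was at 9.42 and 9.003 in miR-20a cells and 8.62 and 8.70 in miR-NT cells. Its change of 0.55 ± 0.14 (SE, limma adjusted p = 0.161) was 0.34 without miR-20a replicate 1. All 3 probe sets of CBLB were higher, but the mean over them changed by only 0.22. EPS15, an endocytosis adaptor of EGFR, had a change of 0.30 ± 0.09 and SOCS5, which promotes EGFR breakdown, of 0.37 ± 0.13, with all probe sets of each higher. The change of SOCS5 was 0.20 without miR-20a replicate 1. With the mean over probe sets, EPS15 changed by 0.25 and SOCS5 by 0.42.

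The ERK feedback and output genes had a median change of -0.14, with 18 of 37 probe sets below and 4 above without overlap (48.6% and 10.8%, against 27.2% and 21.7% of all probe sets). MYC, a growth transcription factor, read 9.01 and 8.996 in miR-20a cells, against 9.32 and 9.38 in miR-NT cells (change -0.34 ± 0.09, SE, limma adjusted p = 0.157). DUSP5, a nuclear phosphatase of ERK, had a change of -0.38 ± 0.11 and IER3, an early response gene, one of 0.30 ± 0.09. No list is called different from the array as a whole on these counts.

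**Figure D3:**
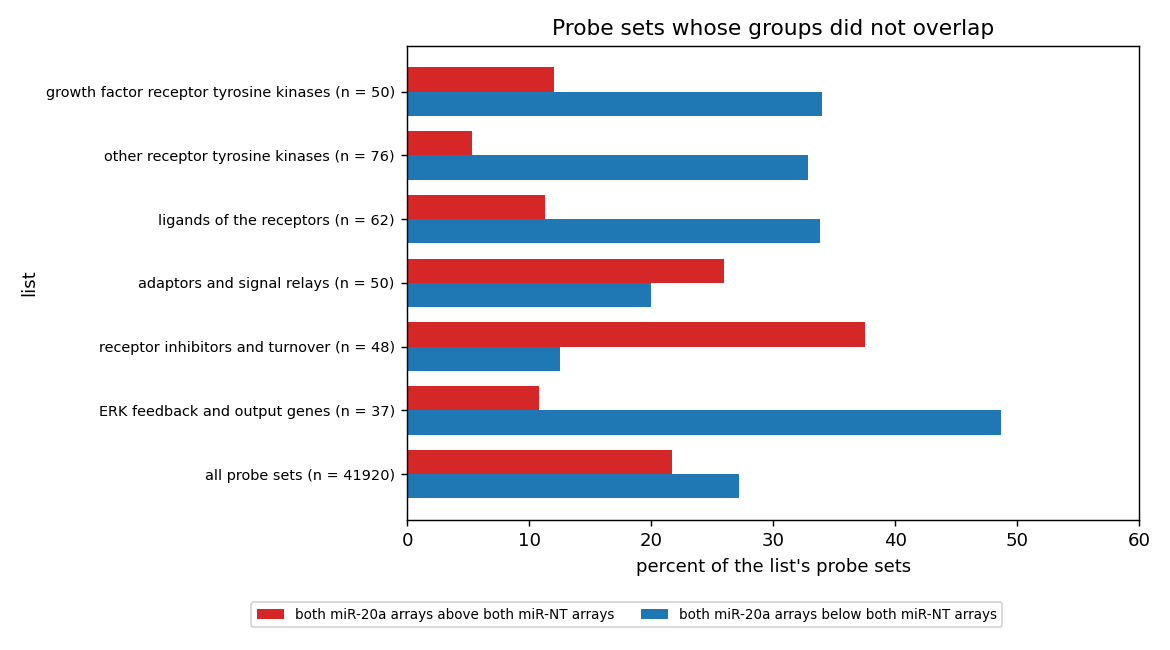
Percent of each list's probe sets (x axis) whose 2 miR-20a arrays lay all above (upper bar) or all below (lower bar) the 2 miR-NT arrays, with the number of probe sets beside each list. The receptors had 12.0% above and 34.0% below, against 21.7% and 27.2% of all probe sets in the last row.

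Markers of the line and of other cell types were also read. Levels of different probe sets are not on a common footing, so they do not settle the identity of the line. VIM, the intermediate filament vimentin, read 14.68 and 14.63 log2 units in miR-20a cells, against 14.70 and 14.66 in miR-NT cells. CD44, a marker of mesenchymal glioma, read 12.71 and 12.57 in miR-20a cells, against 12.48 and 12.43 in miR-NT cells, by the probe set of the highest mean, while 9 of its 13 probe sets had a lower mean in miR-20a cells. GFAP, the astrocyte filament, read 6.94 and 7.33 in miR-20a cells, against 6.94 and 7.29 in miR-NT cells, and whether this lies above background is not known. CD44 and GFAP were chosen after their values were seen, as were the next 3. The glial and neural crest transcription factor SOX9 was at 6.996 and 6.75 in miR-20a cells, against 7.39 and 7.23 in miR-NT cells (change -0.44 ± 0.12, SE, limma adjusted p = 0.165), and its other probe set had a change of -0.66 (limma adjusted p = 0.0884). FABP7, a radial glia lipid carrier, had a change of -0.26 and GPM6B, a neural membrane protein, of -0.24, each by the probe set of the highest mean. The probe sets of neither gene all went the same way: those of FABP7 went 2 lower and 1 higher, and those of GPM6B 2 lower and 2 higher. The named probe sets averaged 6.447 (FABP7) and 5.878 (GPM6B) log2 units over the 4 arrays, and whether this lies above background is not known. Of 14 glial and neural stem cell genes 3 had a higher mean in miR-20a cells, and of 8 epithelial genes 2. Of 6 blood genes 2 had one, and of 8 endothelial genes 1. By the probe set of the highest mean, 53.0% of all genes had a lower mean. No probe set of these marker lists passed the test. An unadjusted p under 0.05 was reached by 12 of 96 (limma, 12.5%, against 17.9% of all probe sets), 1 higher and 11 lower. The summed levels of a list's genes, as log2 of the sum, ranged from 15.02 to 15.08 in miR-20a cells and 15.02 to 15.06 in miR-NT cells for the glial list, a sum made up mostly of VIM. The epithelial sums were 9.70 to 9.75 in miR-20a cells and 9.75 to 9.86 in miR-NT cells. The blood sums were 9.68 to 9.82 in miR-20a cells and 9.81 to 9.86 in miR-NT cells. The endothelial sums were 9.88 to 9.89 in miR-20a cells and 10.002 to 10.01 in miR-NT cells, so that only this list had groups apart. Over all probe sets, which share their RNA and are no replicates, the log2 change went with the mean level (Spearman rho = 0.22), and the part of this or of RNA quality in the receptor values was not tested.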

How the data were processed

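Single-colour Affymetrix arrays of 4 RNA samples were used, 2 per group. The authors deposited log2 levels, 1 per probe set and array. The base of the logarithm follows from the values, which end at 15.07. The R package affy is named in the submitters' processing notes, without a version, and how background and scaling were handled is not stated in the labels. GEO's platform annotation gave gene names (37465 of 41920 probe sets with 1 gene), and 0 symbols had to be updated to RefSeq. The 10 array controls were left out of the fit, and no filter was applied.

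A linear model with a group term was fitted to all 41920 probe sets (lmFit and eBayes of limma 3.58.1, R 4.3.3), and p-values were two-sided and adjusted over all of them with a threshold of 0.05. Intervals of 95% used 6.60 degrees of freedom, 2 from a probe set's own arrays and 4.60 from the spread over all probe sets. An SE is therefore not the spread of that probe set's own arrays alone. With 2 arrays against 2 an exact permutation p cannot go below 0.333. Depth has no meaning for arrays, and their number limits the precision. The fit was run on simulated data with independent noise, of the spread that the fit itself assumes. This cannot show how it does on arrays that share a culture or differ in RNA quality. The labels do not pair the replicate numbers, and differences between replicates 1 and 2 correlated at -0.12 between the groups.

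Members and lists were chosen with earlier results of these data known. Named were all members, then in each of the 5 pathway lists the genes past the threshold, or else the 3 with the smallest p by their probe set of the highest mean, and of the marker lists the highest member (VIM). Other genes are said to be chosen after their values were seen. The fit was repeated with median centring, quantile normalization, a filter on low levels, a replicate block, a trend and robust fit, 1 value per gene, another threshold, and each array left out. Some genes of the lists are not reported here.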

Additional observations from a re-analysis of the deposited data

Results flagged for a closer look

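The array controls enter no comparison. For ACTB, the 3′ control probe set exceeded the 5′ one, a sign of RNA quality, by an average of 0.486 log2 units on the miR-20a arrays, above the 0.272 of the miR-NT arrays (0.515 and 0.456 against 0.198 and 0.347). That of GAPDH averaged 0.275 on the miR-20a arrays and 0.222 on the miR-NT arrays (0.274 and 0.277 against 0.225 and 0.219). The groups overlapped for neither control, so this sign of RNA quality cannot be separated from miR-20a on these arrays. Its part in the receptor values was not tested.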

How the results depend on the processing

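The receptors gave 0 probe sets or genes past the threshold in each of the 13 other settings run (limma, 0 to 10 at an unadjusted p under 0.05), with a smallest adjusted p of 0.0626, in the trend and robust fit. The count over all probe sets, 57, was 334 without the lowest 40% by mean level, 957 with the trend and robust fit, 153 with the mean over a gene's probe sets and 159 at an adjusted p under 0.10, and it lay between 0 and 66 when each array was left out. With the replicate block it was 0 (limma, 5754 at an unadjusted p under 0.05), and with the crossed pairing, added after seeing the data, 0 (7343). It was 16 without miR-20a replicate 1, and 0 when either miR-NT array was left out (limma, 3231 and 5097 at an unadjusted p under 0.05). The block changed no other call. Leaving out the lowest 40% kept 31 of the 50 receptor probe sets, and the settings with 1 value per gene tested 10 receptor values. Where no probe set of the array passed, 0 was the only count the receptors could have.

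Of 31 single values followed, 16 of them receptor probe sets, signs turned for those of 5 receptors, with changes between -0.01 and 0.06. After quantile normalization FGFR2 was at 0.0089 and AXL at -0.091. After median centring PDGFRB was at 0.019 and FGFR2 at 0.0194. With the mean over probe sets ERBB2 was at -0.036, ERBB3 at -0.12 and AXL at -0.020. With each array left out in turn, ERBB2 ranged from -0.1475 to 0.2714, ERBB3 from -0.0195 to 0.0407, PDGFRB from -0.0517 to 0.0226 and FGFR2 from -0.1126 to 0.0844. The other receptor probe sets were followed by count: without miR-20a replicate 1, EGFR had 6 of 8 lower in place of 8 and IGF1R 4 of 5 in place of 3. The cause was not tested. The number of arrays, signal over background and the lack of detection calls limit what can be said of PDGFRA and other probe sets of low signal.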
